A study of Mus musculus with 15 samples.

Results

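Livers of male FVB/NJ mice that carried the same mutant beta-catenin (S45Y-CTNNB1) with a different second gene were compared: 3 libraries with human MET (hMET), called here the MET group, against 3 libraries with a mutant NRF2 (G31A-NFE2L2), called here the NRF2 group. These 6 of the 15 libraries of the series were chosen by their labels alone, and all expressed genes were compared. The remaining groups, each of 3 libraries, were wild-type liver (WT), S45Y-CTNNB1 with G31A-NFE2L2 and hMET (called here the triple group), and G31A-NFE2L2 with hMET. Messenger RNA of fresh frozen liver was sequenced and counted per gene. Every animal of both compared groups is labelled with S45Y-CTNNB1, and no group carried S45Y-CTNNB1 alone, so a difference between the groups cannot be told apart as an effect of MET or an effect of NRF2. The labels give no age, vector, promoter, delivery route or time after delivery, do not say whether tumour or whole liver was taken, and do not say whether each library came from its own mouse. The p-values therefore speak of the spread among these libraries, which may be technical.

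Beta-catenin carries the canonical Wnt signal. Kinases of a destruction complex mark it at a run of serines and a threonine near its start, and loss of one of these sites lets it build up and switch on target genes with TCF factors. In liver the signal sets the gene programme of hepatocytes around the central vein. MET is the receptor tyrosine kinase for hepatocyte growth factor, known in liver for growth and repair through the ERK and AKT cascades. NRF2 switches on the antioxidant response. KEAP1 holds it at a short motif near its start for destruction, and NRF2 that escapes binds antioxidant response elements next to genes of glutathione synthesis, detoxification and NADPH supply.

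The codons below show what the labels' mutations touch, read from the mouse transcripts of GENCODE M21 with the codon of the mutated residue in capitals. In the Ctnnb1 stretch, codons 29 to 48 of 781, the capitals mark serine 45, which S45Y replaces. In the Nfe2l2 stretch, codons 22 to 38 of 597, they mark glycine 31, which G31A replaces. Reads were counted per gene, so neither allele is seen in these data.
Ctnnb1: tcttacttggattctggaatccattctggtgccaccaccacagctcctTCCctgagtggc
Nfe2l2: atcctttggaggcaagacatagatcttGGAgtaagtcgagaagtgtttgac

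The libraries of the 6 samples held 15123917 to 20702618 gene counts. The first principal component of log2 CPM (gene counts scaled to a common library total with TMM factors) carried 77.3% of their variance and separated the groups, and the median standard deviation of a gene within a group was 0.169 in the MET group and 0.166 in the NRF2 group on the log2 scale. Differences below are log2 fold changes of the MET group minus the NRF2 group ± standard error, so a negative value is a gene higher in the NRF2 group. A gene is called where the edgeR quasi-likelihood test over all 15 libraries gave a Benjamini-Hochberg adjusted p under 0.05. The share of unmapped reads moved with the groups, at 15.8 to 19.1% in the MET group and 9.71 to 11.8% in the NRF2 group, and so did the share of counts in the 20 most abundant genes, at 27.0 to 27.7% and 20.7 to 21.04%. Their part in the differences was not tested directly. Counts of 3 or more calls that a term for the unmapped share moved by more than 1.5 times are given beside each result as the count with the unmapped term, and calls that ended or counts that moved that far when 1 library was left out or another setting was used are named at the end of their paragraph.

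Of 14098 tested genes, 4954 (35.1%) were called, 2424 (17.2%) higher and 2530 (17.9%) lower in the MET group. These shares are the background against which the gene lists below are read, with an all-gene median of 0.03. All MET group libraries stood above all NRF2 group libraries for 3582 genes (25.4%), and the reverse held for 3475 (24.6%). Wherever groups are said below not to overlap, these are the shares to read it against. A difference of at least 4-fold was found for 260 called genes on the MET side and 365 on the NRF2 side, and one of at least 16-fold for 50 and 112, so the largest differences were more often on the NRF2 side. Scaled to total counts instead of TMM, the all-gene median moved to -0.18 and 1300 genes were called higher and 4043 lower in the MET group. With the term for the unmapped share, 1632 genes were called, 734 higher and 898 lower. Leaving out any 1 of the 6 libraries left 3721 to 4421 calls, and leaving out the 3 libraries of the series marked as added in their file labels, 1 of them MET group replicate 3, left 4703.

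**Figure D1:**
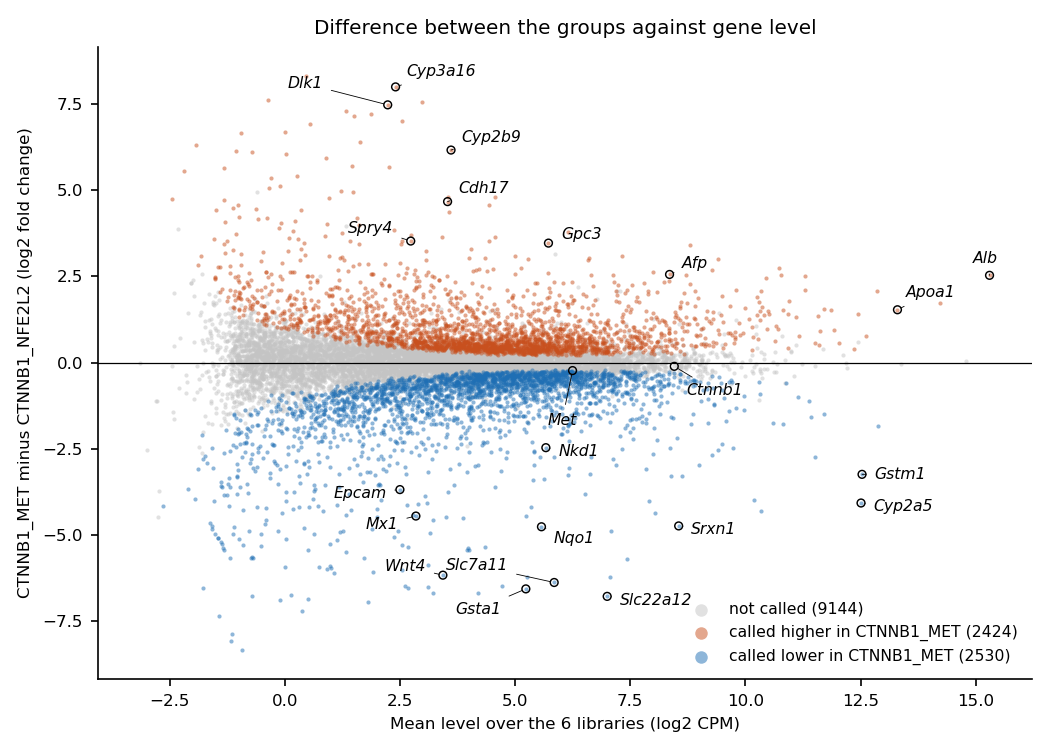
Each point is 1 of 14098 tested genes, with its mean level over the 6 libraries in log2 CPM on the horizontal axis and the log2 fold change, CTNNB1_MET (MET group) minus CTNNB1_NFE2L2 (NRF2 group), on the vertical axis. Called genes are coloured by direction, and the points far below 0 include abundant genes such as Slc22a12 and Gstm1, while Alb, among the most abundant genes, lies above 0.

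The mouse genes that correspond to the introduced genes did not separate the groups. How far reads of the introduced genes align to the mouse genes was not tested, so these counts do not check the labels. Ctnnb1 stood at 387, 320.2 and 309.6 CPM in the MET group and 388, 358 and 352 CPM in the NRF2 group. Nfe2l2 stood at 62.4, 56.4 and 50.1 CPM in the MET group and 88.1, 49.2 and 48.9 CPM in the NRF2 group, with 88.1 CPM in NRF2 group replicate 1 above all other libraries of the pair. Met stood at 64.9, 73.0 and 72.2 CPM in the MET group and 82.5, 85.7 and 78.8 CPM in the NRF2 group. None of the 3 passed the test (Ctnnb1 -0.11 ± 0.11, adjusted p = 0.495; Nfe2l2 -0.14 ± 0.20, adjusted p = 0.623; Met -0.23 ± 0.15, adjusted p = 0.245), although the Met libraries of the groups did not overlap.

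Genes of the NRF2 response were higher in the NRF2 group. Over 71 tested targets from the lists of detoxifying enzymes, glutathione supply, glutathione transferases, thioredoxin and peroxidase genes and NADPH supply, 50 were lower and 2 higher in the MET group, with a median of -1.59 against 0.03 over all genes. Their summed level was 16142 to 18503 CPM in the MET group, 64532 to 69613 CPM in the NRF2 group and 15352 to 21596 CPM in WT. Against WT, 53 targets were higher and 4 lower in the NRF2 group (background 24.5% and 24.2%), and 16 were higher and 8 lower in the MET group (background 11% and 6.22%). Both comparisons with WT use the same WT libraries. With the term for the unmapped share 50 targets were called lower and 0 higher in the MET group.

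Among detoxifying enzymes, 11 of 16 tested genes were lower and 0 higher in the MET group (median -2.27). Nqo1, the quinone reductase used as the standard readout of NRF2 (chromosome 8, 107388225 to 107403205, GRCm38.p6), was at 9.13, 10.9 and 7.36 CPM in the MET group and 243, 249 and 251 CPM in the NRF2 group. The groups were far apart in every library (-4.77 ± 0.18, adjusted p = 1.15e-10), and WT stood at 5.38 CPM on average. Cbr3, a carbonyl reductase, was at 5.52, 5.39 and 2.61 CPM in the MET group and 282, 352 and 362 CPM in the NRF2 group (-6.22 ± 0.32, adjusted p = 9.14e-09). Ugdh, which makes the UDP-glucuronic acid used to conjugate drugs, was at 124, 133 and 120.5 CPM in the MET group and 1186, 1319 and 1235 CPM in the NRF2 group (-3.31 ± 0.19, adjusted p = 7.63e-09). The epoxide hydrolase Ephx1 (-2.36 ± 0.18), the carbonyl reductase Cbr1 (-3.08 ± 0.15) and the biliverdin reductase Blvrb (-2.18 ± 0.13) were lower in the MET group too, as was the haem oxygenase Hmox1 by a smaller step (-0.81 ± 0.19).

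Glutathione is made from cysteine, glutamate and glycine, and 7 of 10 genes of its synthesis and supply were lower and 0 higher in the MET group (median -1.99). Slc7a11, the transporter that brings in cystine (chromosome 3, 50364936 to 50499087, GRCm38.p6), was at 7.05, 8.57 and 3.76 CPM in the MET group and 523, 592 and 490.5 CPM in the NRF2 group. No library of one group came near the other (-6.39 ± 0.47, adjusted p = 4.85e-07). Its partner chain Slc3a2 differed less (-1.73 ± 0.16). Gclc, the catalytic subunit of the rate-limiting ligase, was at 249, 266 and 223 CPM in the MET group and 1569.9, 1719 and 1457 CPM in the NRF2 group (-2.69 ± 0.23, adjusted p = 3.27e-07), and the modifier subunit Gclm at 112.7, 134 and 129.9 CPM in the MET group and 620.2, 606 and 543 CPM in the NRF2 group (-2.23 ± 0.14, adjusted p = 1.99e-08). In WT these genes averaged 319 and 145 CPM, and the MET group did not pass against WT for either (adjusted p = 0.247 and 0.302). The glutathione synthase Gss (-1.74 ± 0.11) and the glutathione reductase Gsr (-2.97 ± 0.17) followed. Ggt1, which breaks down glutathione at the cell surface, was at 0.981, 1.06 and 0.574 CPM in the MET group and 63.8, 94.7 and 76.2 CPM in the NRF2 group (-6.51 ± 0.35, adjusted p = 1.98e-08), so it was close to undetected in the MET group.

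Glutathione transferases join glutathione to electrophiles. They showed 13 of 20 tested members lower in the MET group (median -1.67), and their summed level was 7657 to 8358 CPM in the MET group against 34666 to 38833 CPM in the NRF2 group. Gstm1 alone held 1621, 1922 and 2262 CPM in the MET group and 18366, 20009 and 16684 CPM in the NRF2 group (-3.25 ± 0.30, adjusted p = 7.45e-07). Gsta1 was at 4.11, 4.75 and 2.77 CPM in the MET group and 321, 404 and 369.6 CPM in the NRF2 group (-6.57 ± 0.36, adjusted p = 2.33e-08) and Gsta4 at 94.6, 109.6 and 115 CPM in the MET group and 1000.2, 1129.8 and 1030.3 CPM in the NRF2 group (-3.31 ± 0.23, adjusted p = 4.22e-08). Gstp1, the pi-class enzyme, differed less (-1.38 ± 0.26), and Gstp2 more (-4.20 ± 0.25). Gstz1, which works in tyrosine breakdown, was the member higher in the MET group (0.49 ± 0.15). The alpha and mu classes hold near-identical copies, so how reads were split among Gsta1, Gsta2, Gstm1 and their neighbours is uncertain. Gstz1 was not called with the unmapped term or with total-count scaling. Gstz1 was not called without MET group replicate 1 or 2 or NRF2 group replicate 1 or 2 (adjusted p up to 0.0797).

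Thioredoxin and peroxidase genes, which reduce oxidised proteins and peroxides, were lower in the MET group for 12 of 14 members and higher for 0 (median -1.10). Srxn1, the sulfiredoxin that repairs peroxiredoxins, was at 79.7, 76.7 and 61.7 CPM in the MET group and 2099.8, 1910.1 and 1831 CPM in the NRF2 group (-4.74 ± 0.24, adjusted p = 2.43e-09). Gpx2, a glutathione peroxidase best known from gut epithelium, was at 0.797, 0.992 and 0.209 CPM in the MET group and 67.0, 52.8 and 58.6 CPM in the NRF2 group (-6.54 ± 0.34, adjusted p = 1.03e-08). Txnrd1, the thioredoxin reductase, was at 129, 143 and 132 CPM in the MET group and 588, 462 and 458 CPM in the NRF2 group (-1.90 ± 0.14, adjusted p = 1.07e-07). The abundant Prdx1 (-0.97 ± 0.13) and the lipid peroxidase Gpx4 (-1.49 ± 0.11) differed by smaller steps in the same direction.

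NADPH drives these reductions. Of 11 genes of NADPH supply, 7 were lower and 1, Nnt, higher in the MET group (0.44 ± 0.10 for Nnt, a mitochondrial transhydrogenase), with a median of -0.49. G6pdx, the first enzyme of the pentose phosphate pathway, was at 10.6, 10.8 and 12.2 CPM in the MET group and 31.8, 39.8 and 32.2 CPM in the NRF2 group (-1.62 ± 0.20, adjusted p = 2.61e-05). Pgd, the next dehydrogenase, was at 58.0, 45.8 and 54.5 CPM in the MET group and 375, 381 and 345 CPM in the NRF2 group (-2.80 ± 0.18, adjusted p = 2.25e-08). The non-oxidative enzymes Tkt (-1.65 ± 0.15) and Taldo1 (-1.47 ± 0.12) and the malic enzyme Me1 (-1.17 ± 0.18) moved the same way. Nnt was not called with the unmapped term or with total-count scaling.

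**Figure D2:**
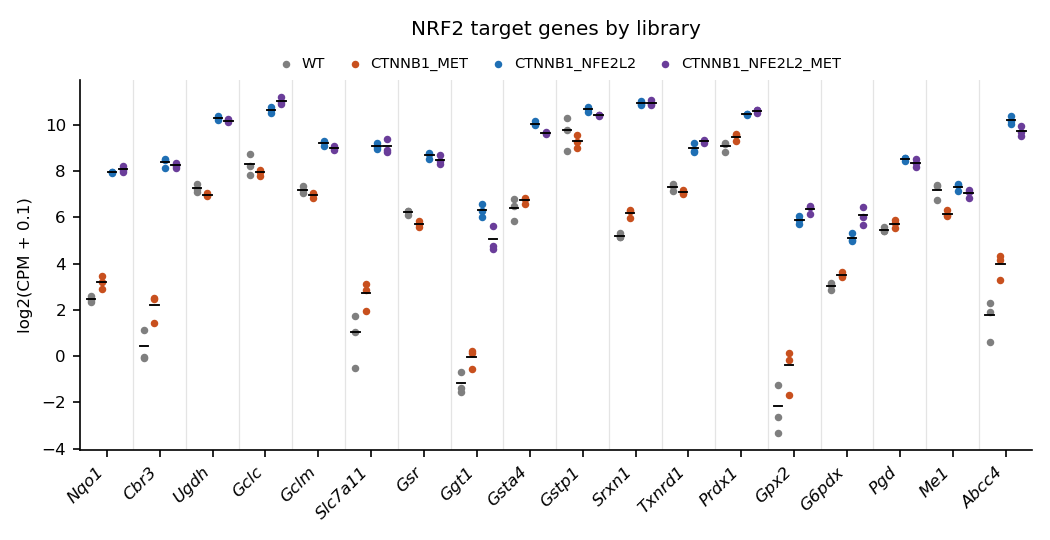
Level of NRF2 target genes in each library of WT, CTNNB1_MET (MET group), CTNNB1_NFE2L2 (NRF2 group) and CTNNB1_NFE2L2_MET (triple group), as log2(CPM + 0.1); points are libraries and bars the mean of the 3 libraries of a group. The MET group points sit nearer the WT points and the NRF2 group points nearer those of the triple group for most genes, Me1 and Gstp1 being less clear, with no overlap between the MET and NRF2 groups in any gene shown.

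Genes of membrane transporters and of iron and haem handling followed the NRF2 targets in part. ABC transporters that export drugs and conjugates were lower in the MET group for 10 of 11 members (median -1.93), with Abcc6 the 1 member higher (0.45 ± 0.11). Abcc4, which exports cyclic nucleotides and bile acid conjugates, was at 17.6, 19.98 and 9.61 CPM in the MET group and 1158, 1313 and 1056 CPM in the NRF2 group (-6.23 ± 0.44, adjusted p = 2.53e-07). Abcb1b, a multidrug transporter (-3.74 ± 0.26), Abcc3 (-2.01 ± 0.21), Abcc5 (-1.93 ± 0.20) and Abcg2 (-1.81 ± 0.18) were lower too. Of 16 iron and haem genes 9 were lower in the MET group (5 with the unmapped term) and 2, the transferrin gene Trf (1.73 ± 0.24) and the transferrin receptor Tfr2 (0.95 ± 0.15), were higher. The summed level of these 16 genes went the other way, at 35884 to 49589 CPM in the MET group and 29287 to 35605 CPM in the NRF2 group. The ferritin chains Fth1 (-1.48 ± 0.19) and Ftl1 (-1.84 ± 0.23) were both lower in the MET group. Hamp, the iron hormone hepcidin, was at 418, 762 and 937 CPM in the MET group and 331, 362 and 746 CPM in the NRF2 group, and the groups overlapped (0.56 ± 0.44, adjusted p = 0.357). Abcc6 was not called with the unmapped term or with total-count scaling.

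Of 10 regulators, 5 were lower in the MET group (1 with the unmapped term), namely the DNA-binding partners Mafg (-0.98 ± 0.11) and Mafk (-0.49 ± 0.12), the KEAP1-binding protein Sqstm1 (-0.56 ± 0.16), Keap1 itself (-0.30 ± 0.10) and the ligase scaffold Cul3 (-0.28 ± 0.10). Another partner, Maff, was higher (0.78 ± 0.29). Proteasome subunits were lower in the MET group for 6 of 32 members and higher for 0 (median -0.09; 19 lower with total-count scaling and 2 with the unmapped term), with Psmd11 (-0.72 ± 0.10) and Psmb5 (-0.68 ± 0.09) among them. That share is close to the 17.9% of all genes lower in the MET group. Mafk, Sqstm1, Keap1 and Cul3 were not called with the unmapped term. Maff was not called with the unmapped term or with total-count scaling. Sqstm1 was not called without NRF2 group replicate 1 (adjusted p = 0.0745), Keap1 without MET group replicate 1 or 2 or NRF2 group replicate 2 or 3 (adjusted p up to 0.0955), Cul3 without MET group replicate 1 or 2 or NRF2 group replicate 1, 2 or 3 (adjusted p up to 0.177) and Maff without MET group replicate 1 or 2 or NRF2 group replicate 2 or 3 (adjusted p up to 0.153). The NRF2 regulators lower in the MET group numbered 3 without MET group replicate 1 or 2 or NRF2 group replicate 1, 2 or 3 and 3 with counts of 1 strand.

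Promoters of the NRF2 targets were searched for the antioxidant response element, spelled TGACNNNGC and read on both strands, in RefSeq promoters of GRCm38.p6 that span 250 bases before to 50 after a start site. Promoters matched 10703 of 14098 tested genes by symbol. The element was in 14 of 63 NRF2 targets with a promoter (22.2%), against 16.9% of all tested genes, 18.3% of genes lower in the MET group and 15.7% of genes higher. A match is a description of the letters only, and elements outside the window were not searched. Windows of at most 60 bases before the start site are shown for members named above and called lower in the MET group that hold the element there. They run in the direction of the gene, with the element in capitals on either strand. Other members held the element before the start site with small differences and are not shown, namely Blvra (-0.08), Ggct (0.28), Gsta3 (-0.59), Mgst1 (-0.39) and Sod1 (-0.39). The windows are chr3:122245397-122245456 (plus strand) for Gclm, chr10:75571451-75571510 (plus strand) for the start site of Ggt1 with the higher coordinate among those with a match, chr10:82859088-82859147 (plus strand) for Txnrd1, chr5:65435903-65435962 (minus strand) for Ugdh, chrX:74428904-74428963 (minus strand) for G6pdx and chr4:116685440-116685499 (plus strand) for Prdx1.
Gclm: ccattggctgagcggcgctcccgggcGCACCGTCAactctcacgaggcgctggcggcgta
Ggt1: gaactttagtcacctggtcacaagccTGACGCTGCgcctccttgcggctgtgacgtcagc
Txnrd1: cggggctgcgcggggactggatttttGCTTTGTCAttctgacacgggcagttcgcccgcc
Ugdh: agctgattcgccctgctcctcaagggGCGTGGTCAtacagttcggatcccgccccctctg
G6pdx: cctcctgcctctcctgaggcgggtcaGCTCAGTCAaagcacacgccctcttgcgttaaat
Prdx1: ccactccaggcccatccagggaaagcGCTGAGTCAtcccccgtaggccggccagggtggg

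Several of the largest differences lay outside the NRF2 lists. Slc22a12, the urate transporter known from kidney (chromosome 19, 6535854 to 6543070, GRCm38.p6), was at 13.9, 18.9 and 5.74 CPM in the MET group and 1411, 1494 and 1328 CPM in the NRF2 group (-6.79 ± 0.47, adjusted p = 2.49e-07). Wnt4, a secreted Wnt ligand (chromosome 4, 137277635 to 137299501, GRCm38.p6), was at 1.29, 1.42 and 1.10 CPM in the MET group and 129, 93.2 and 50.4 CPM in the NRF2 group (-6.17 ± 0.47, adjusted p = 6.93e-07). It was also low in WT (1.45 CPM) and in the triple group (2.60 CPM). Tekt5, a tektin of sperm tails (-5.88 ± 0.29), Slc39a2, a zinc transporter (-5.39 ± 0.20), Slc1a1, a glutamate transporter (-5.29 ± 0.35), Trim16, a ubiquitin ligase (-5.06 ± 0.18), and Dmpk, a muscle kinase (-3.24 ± 0.12), were all higher in the NRF2 group. Tekt5 held 63.8 CPM in the NRF2 group and 62.4 CPM in the triple group.

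Most direct beta-catenin targets were above WT in both groups, and some stood higher in the NRF2 group than in the MET group. Against WT, 12 of 16 direct Wnt targets were higher in the MET group (background 11%) and 13 in the NRF2 group (background 24.5%), and none was lower in either. Between the groups, 7 targets were lower in the MET group and 1 higher (median -0.42). Nkd1, a feedback inhibitor of the pathway (chromosome 8, 88521342 to 88594887, GRCm38.p6), was at 26.2, 24.1 and 15.7 CPM in the MET group and 154, 109 and 102 CPM in the NRF2 group (-2.47 ± 0.20, adjusted p = 3.24e-07). Axin2, a scaffold of the destruction complex, was at 18.1, 15.7 and 16.4 CPM in the MET group and 31.2, 26.0 and 31.2 CPM in the NRF2 group (-0.81 ± 0.22, adjusted p = 0.01). Apcdd1, a Wnt inhibitor of the membrane (-2.18 ± 0.32), the R-spondin receptor Lgr5 (-0.80 ± 0.23), the Wnt-inactivating enzyme Notum (-0.36 ± 0.12) and the cyclin Ccnd1 (-0.57 ± 0.19) were lower in the MET group as well. Rnf43, a ubiquitin ligase that removes Wnt receptors, went the other way, at 66.0, 53.1 and 44.4 CPM in the MET group and 37.3, 30.2 and 24.6 CPM in the NRF2 group (0.82 ± 0.23, adjusted p = 0.012). Sp5, a transcription factor that responds directly to beta-catenin, did not pass, although its libraries did not overlap (-0.29 ± 0.20, adjusted p = 0.267). Axin2, Lgr5, Notum and Ccnd1 were not called with the unmapped term. Rnf43 was not called with the unmapped term or with total-count scaling. Lgr5 was not called without MET group replicate 3 or NRF2 group replicate 1 (adjusted p up to 0.0826), Notum without MET group replicate 2 or 3 or NRF2 group replicate 2 or 3 (adjusted p up to 0.14), Ccnd1 without MET group replicate 2 or 3 or NRF2 group replicate 1 or 2 (adjusted p up to 0.0965) and Rnf43 without MET group replicate 1 or NRF2 group replicate 3 (adjusted p up to 0.0596). The Wnt targets lower in the MET group numbered 4 without MET group replicate 2 or 3 or NRF2 group replicate 1 or 2.

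Most of these differences were small beside those of the NRF2 targets, and several calls changed when 1 library was left out. With the term for the unmapped share 2 targets were lower and 0 higher. Genes of the pathway itself, from a separate list of ligands, receptors and scaffolds, were higher in the MET group for 6 of 23 members and lower for 1, Wnt5a (-0.61 ± 0.20), with the co-receptor Lrp6 (0.69 ± 0.12) and the receptor Fzd8 (1.202 ± 0.26) among those higher (0 higher with the unmapped term, 2 with total-count scaling). The TCF motif CTTTGAT, read on both strands, was in 2 of 8 Wnt target promoters in the table and in 3.11% of those of all tested genes. The Sp5 window, chr2:70474792-70474851 (plus strand), is shown because Sp5 is a member that holds it, with the motif in capitals. Wnt5a, Lrp6 and Fzd8 were not called with the unmapped term. Wnt5a was not called without MET group replicate 2 or 3 or NRF2 group replicate 1 (adjusted p up to 0.116). The pathway genes higher in the MET group numbered 3 without MET group replicate 2.
Sp5: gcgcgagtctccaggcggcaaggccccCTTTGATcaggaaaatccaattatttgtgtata

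Pericentral genes, switched on by beta-catenin around the central vein, split between the groups. Of 22 tested members, 10 were lower and 3 higher in the MET group (median -0.45). Glul, the glutamine synthetase of the innermost hepatocyte layer (chromosome 1, 153899929 to 153909723, GRCm38.p6), was at 1984, 1848 and 1575 CPM in the MET group and 3779, 4216 and 3768 CPM in the NRF2 group. It was above the WT mean of 567 CPM in both groups and higher in the NRF2 group (-1.12 ± 0.15, adjusted p = 2.99e-05). Cyp1a2, a cytochrome P450 of caffeine metabolism, was at 999, 1234 and 1175 CPM in the MET group and 7393, 7788 and 7392 CPM in the NRF2 group (-2.73 ± 0.22, adjusted p = 2.41e-07), and Cyp2a5, a coumarin hydroxylase, at 1392, 1675 and 1214 CPM in the MET group and 21887, 25177 and 25202 CPM in the NRF2 group (-4.08 ± 0.36, adjusted p = 6.82e-07). Cyp2a5 has near-identical neighbours, so its level is uncertain. The glutamate transporter Slc1a2 (-1.19 ± 0.19), the cation transporter Slc22a3 (-3.10 ± 0.20) and the retinal dehydrogenase Aldh1a1 (-1.77 ± 0.18) were lower in the MET group. Lect2, a hepatokine induced by beta-catenin, was at 635, 530.1 and 425 CPM in the MET group and 234, 216 and 252 CPM in the NRF2 group and so higher in the MET group (1.18 ± 0.19, adjusted p = 1.79e-04), as were the carboxylate transporter Slc13a3 (0.73 ± 0.21) and the vasopressin receptor Avpr1a (1.87 ± 0.22). Rhbg, an ammonium transporter, did not differ beyond its spread (0.14 ± 0.19, adjusted p = 0.626), and the abundant Cyp2e1 did not pass (0.59 ± 0.23, adjusted p = 0.0627). Lect2 was not called with the unmapped term. Slc13a3 was not called with total-count scaling. Slc13a3 was not called without MET group replicate 1 or NRF2 group replicate 2 or 3 (adjusted p up to 0.0681).

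Periportal genes, which carry out urea synthesis, amino acid breakdown and gluconeogenesis around the portal vein, were higher in the MET group. Of 19 members, 17 were higher and 0 lower (median 1.76; 6 higher with the unmapped term, at a median of 0.999). Their summed level was 6478 to 9457 CPM in the MET group, 1566 to 3139.6 CPM in the NRF2 group and 9956 to 15178 CPM in WT. Cyp2f2, a periportal cytochrome P450, was at 661, 964 and 1048 CPM in the MET group and 279.8, 81.6 and 299 CPM in the NRF2 group (2.02 ± 0.45, adjusted p = 0.00413). Hal, the histidine ammonia lyase, was at 74.4, 100.9 and 139 CPM in the MET group and 23.7, 11.2 and 28.0 CPM in the NRF2 group (2.32 ± 0.32, adjusted p = 1.17e-04), and Arg1, the arginase of the urea cycle, at 829.9, 1118 and 997 CPM in the MET group and 299, 257 and 488 CPM in the NRF2 group (1.496 ± 0.22, adjusted p = 8.44e-05). The libraries of the groups did not overlap in any of these, as in 25.4% of all genes with the MET group above. Uroc1 (1.96 ± 0.23), Ftcd (1.76 ± 0.18), Sds (2.01 ± 0.46) and Pck1, the entry enzyme of gluconeogenesis (1.77 ± 0.40), followed. Against WT, 17 of 19 were lower in the NRF2 group (background 24.2%) and 5 in the MET group (background 6.22%). Cdh1, the epithelial cadherin, was the member that stood above WT in the MET group (102, 86.1 and 85.7 CPM in the MET group and 47.8, 21.01 and 24.8 CPM in the NRF2 group; 1.55 ± 0.24, adjusted p = 2.71e-04). Cyp2f2, Arg1, Sds and Pck1 were not called with the unmapped term.

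**Figure D3:**
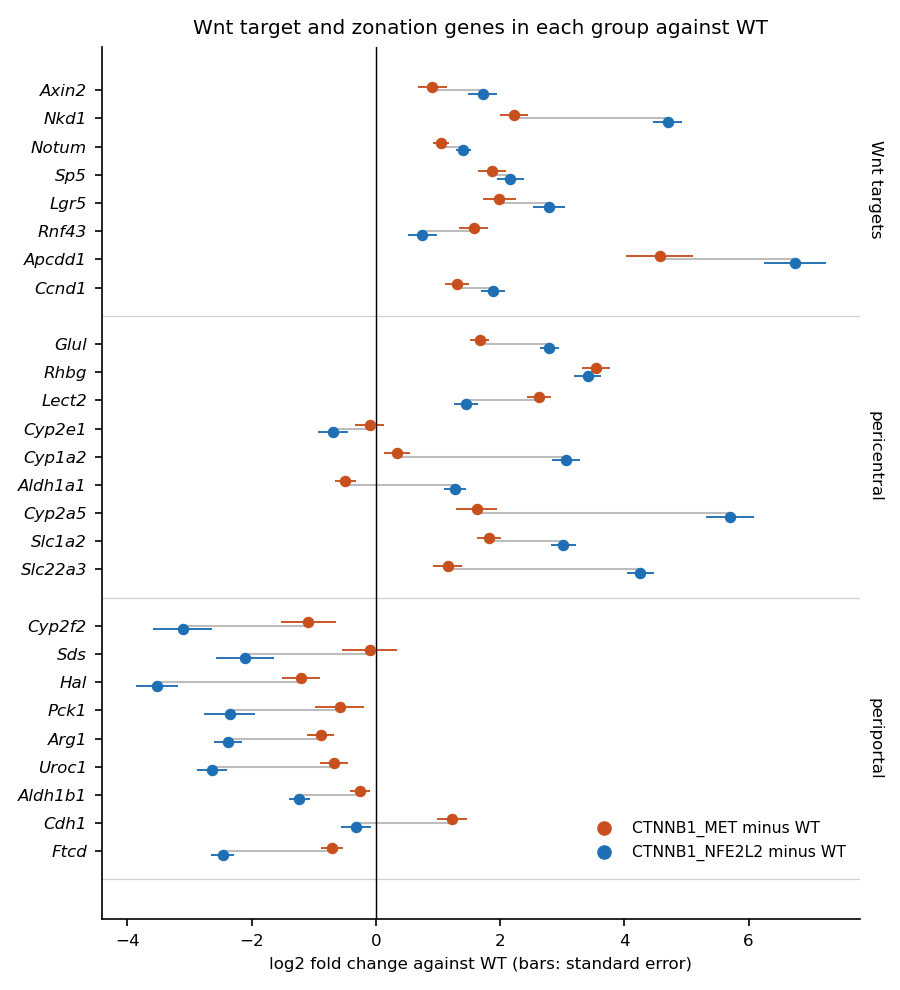
Log2 fold change against WT, with standard error bars, of Wnt target, pericentral and periportal genes in CTNNB1_MET (MET group) and CTNNB1_NFE2L2 (NRF2 group), which share the WT libraries. Wnt targets lie to the right of 0 in both groups, pericentral genes such as Cyp1a2 and Cyp2a5 lie further right in the NRF2 group, and all periportal genes shown lie further left in the NRF2 group.

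Genes that ERK signalling induces were partly higher in the group with MET. Of 19 tested members, 7 were higher and 2 lower in the MET group (median 0.52; 4 higher with the unmapped term). Spry4, a feedback inhibitor of receptor kinases, was at 25.3, 20.1 and 20.99 CPM in the MET group and 2.17, 1.99 and 1.56 CPM in the NRF2 group (3.53 ± 0.27, adjusted p = 1.21e-07). Etv4, an ETS transcription factor, was at 2.82, 1.63 and 1.04 CPM in the MET group and 0.290, 0.157 and 0.111 CPM in the NRF2 group (3.22 ± 0.53, adjusted p = 2.48e-04), a low level in both groups, and its relative Etv5 at 9.75, 9.21 and 7.31 CPM in the MET group and 4.88, 4.39 and 5.11 CPM in the NRF2 group (0.87 ± 0.19, adjusted p = 0.00235). Spred1, another feedback inhibitor, was higher too (1.06 ± 0.13). Dusp6, an ERK phosphatase, did not differ beyond its spread (97.8, 77.7 and 62.8 CPM in the MET group and 91.3, 57.0 and 60.7 CPM in the NRF2 group; 0.19 ± 0.24, adjusted p = 0.588), while the phosphatase Dusp4 was higher in the NRF2 group (7.48, 5.53 and 6.26 CPM in the MET group and 20.5, 21.3 and 13.6 CPM in the NRF2 group; -1.52 ± 0.23, adjusted p = 1.16e-04). Against WT, 8 members were higher in the MET group (background 11%), and 4 were higher and 3 lower in the NRF2 group, shares not above those of all genes (24.5% and 24.2%). A separate list of immediate early and heat shock genes, given among the other observations, went the other way. Of its 15 members 7 were lower and 2 higher in the MET group (0 and 0 with the unmapped term). Without NRF2 group replicate 1, 3 were lower and 2 higher, and the median of the list moved from -0.58 to -0.10. Other settings that moved the count lower are given with the list. Etv5 and Dusp4 were not called with the unmapped term.

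The HGF and MET pathway and other growth factor receptors showed no single direction. Of 17 genes of the HGF and MET axis 3 were higher and 5 lower in the MET group (median -0.02; background 17.2% and 17.9%). The share higher was near that of all genes. Higher were Hgfac, the protease that activates hepatocyte growth factor (179.8, 171 and 193 CPM in the MET group and 42.5, 44.7 and 54.7 CPM in the NRF2 group; 1.94 ± 0.14, adjusted p = 5.58e-08), the docking protein Gab1 (0.66 ± 0.16) and Lrig1 (0.61 ± 0.17). Lower were the docking protein Gab2 (-1.76 ± 0.24), the plasminogen activators Plat (-2.38 ± 0.42) and Plau (-1.32 ± 0.42), the protease inhibitor Spint2 (-0.51 ± 0.13) and Nrp1 (-0.43 ± 0.15). Hgf itself did not pass (0.36 ± 0.30, adjusted p = 0.376). Of 23 other receptor kinases and ligands 6 were higher, among them Egfr (415, 355 and 549 CPM in the MET group and 141, 121.8 and 287 CPM in the NRF2 group; 1.26 ± 0.31, adjusted p = 0.00681) and Fgfr2 (1.73 ± 0.34), and 2, Axl (-0.83 ± 0.17) and Nrg1 (-1.64 ± 0.36), were lower (1 and 0 with the unmapped term, 3 and 4 with total-count scaling). Among 12 genes of the YAP pathway 6 were lower, including the growth factor binding protein Crim1 (-1.67 ± 0.14) and the co-activator Wwtr1 (-0.99 ± 0.12), and 3 were higher (3 and 0 with the unmapped term). Plat, Plau, Spint2, Nrp1, Egfr, Fgfr2, Axl and Nrg1 were not called with the unmapped term. Gab1 and Lrig1 were not called with total-count scaling. Plau was not called without MET group replicate 1 or 2 or NRF2 group replicate 1 or 2 (adjusted p up to 0.101) and Nrp1 without MET group replicate 1, 2 or 3 or NRF2 group replicate 1, 2 or 3 (adjusted p up to 0.121). The HGF and MET axis genes higher in the MET group numbered 1 with total-count scaling. The HGF and MET axis genes lower in the MET group numbered 3 without MET group replicate 1 or 2 or NRF2 group replicate 1 or 2 and 1 with the unmapped term. The receptor kinase genes higher in the MET group numbered 3 without NRF2 group replicate 2.

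Proliferation genes were above WT in both groups and lower in the MET group than in the NRF2 group. All 28 tested mitosis genes were higher than WT in each group (background 11% and 24.5%). Between the groups all 28 were lower in the MET group (median -1.29), and their summed level was 133 to 200.4 CPM against 358 to 442 CPM and 35.1 to 43.6 CPM in WT. Mki67, the standard marker of cycling cells, was at 25.3, 19.3 and 32.2 CPM in the MET group and 54.1, 56.3 and 42.6 CPM in the NRF2 group (-0.99 ± 0.19, adjusted p = 0.00116). Cdk1, the kinase that starts mitosis, was at 7.91, 7.65 and 6.11 CPM in the MET group and 21.8, 28.7 and 22.9 CPM in the NRF2 group (-1.76 ± 0.20, adjusted p = 6.18e-06), and Top2a, which untangles chromosomes, at 14.04, 9.57 and 13.9 CPM in the MET group and 30.6, 30.3 and 26.2 CPM in the NRF2 group (-1.21 ± 0.18, adjusted p = 1.19e-04). The mitotic kinases Aurka (-1.46 ± 0.18) and Plk1 (-1.35 ± 0.21) and the kinesin Kif20a (-1.54 ± 0.21) followed. DNA replication genes were lower in the MET group for 16 of 26 and higher for 1, Tk1 (0.89 ± 0.20), with a median of -0.61, and Rrm2 (-1.11 ± 0.18), Cdt1 (-1.27 ± 0.17) and Pcna (-0.65 ± 0.12) were examples. Mki67, Top2a, Plk1 and Tk1 were not called with the unmapped term.

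With the term for the unmapped share, 3 of 28 mitosis genes and 4 of 26 replication genes were lower in the MET group, at medians of -1.05 and -0.62. Leaving out any 1 library left 25 to 28 mitosis genes lower. In these bulk samples fewer cycling cells and less RNA per cell cannot be told apart, here and for every cell type below. Brakes of the cycle and p53 targets differed less, with 6 of 21 lower and 2 higher in the MET group (1 and 0 with the unmapped term). The inhibitor Cdkn2c was lower (-1.004 ± 0.15), and Cdkn1a, the p53 target p21, did not differ beyond its spread (0.12 ± 0.63, adjusted p = 0.91). The brakes and p53 targets lower in the MET group numbered 2 without MET group replicate 3 or NRF2 group replicate 1.

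Fetal liver and tumour marker genes divided between the groups. Of 17 members, 7 were higher and 4 lower in the MET group (median 0.21; 1 lower with the unmapped term). Afp, the fetal albumin, was at 926, 800.1 and 669 CPM in the MET group and 148, 138 and 119.8 CPM in the NRF2 group (2.56 ± 0.47, adjusted p = 0.0012), with WT at 4.96 CPM. Gpc3, a cell-surface glypican used to diagnose liver cancer (chromosome X, 52272426 to 52613974, GRCm38.p6), was at 219.6, 178 and 137 CPM in the MET group and 19.9, 14.8 and 13.6 CPM in the NRF2 group (3.47 ± 0.43, adjusted p = 5.63e-05). Prom1, a stem cell marker, was at 52.7, 52.8 and 50.3 CPM in the MET group and 7.54, 4.34 and 3.89 CPM in the NRF2 group (3.29 ± 0.25, adjusted p = 1.85e-07). The guidance receptor Robo1 (1.66 ± 0.25), the tetraspanin Tspan8 (2.58 ± 0.53) and the imprinted Peg3 (1.66 ± 0.25) were higher in the MET group too. Epcam, an adhesion molecule of progenitor cells, went the other way, at 1.04, 2.34 and 1.41 CPM in the MET group and 26.5, 13.5 and 20.8 CPM in the NRF2 group (-3.69 ± 0.31, adjusted p = 5.56e-07), with Cd44 (-1.49 ± 0.30), Cd24a (-1.15 ± 0.34) and Golm1 (-0.38 ± 0.12). Lcn2, a secreted lipocalin, did not overlap between the groups (242, 162 and 133 CPM in the MET group and 18.0, 26.7 and 15.2 CPM in the NRF2 group) but did not pass in the fit over all 15 libraries (3.16 ± 1.42, adjusted p = 0.11). Cd44, Cd24a and Golm1 were not called with the unmapped term. Cd24a was not called without MET group replicate 3 or NRF2 group replicate 1 (adjusted p up to 0.067) and Golm1 without MET group replicate 2 or 3 or NRF2 group replicate 2 or 3 (adjusted p up to 0.0966). The fetal and tumour markers lower in the MET group numbered 2 without MET group replicate 3.

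Dlk1, a fetal growth regulator expressed from the paternal allele of an imprinted cluster (chromosome 12, 109452485 to 109463336, GRCm38.p6), was at 62.8, 32.95 and 83.2 CPM in the MET group and 0.580, 0.209 and 0.167 CPM in the NRF2 group (7.48 ± 0.51, adjusted p = 1.80e-07). The non-coding RNAs of the maternal allele of the same cluster did not separate the groups. Meg3 was at 394, 248 and 196 CPM in the MET group and 215, 259 and 279 CPM in the NRF2 group (0.16 ± 0.30, adjusted p = 0.734), Rian at 211, 137 and 111.1 CPM in the MET group and 105.3, 107 and 141 CPM in the NRF2 group (0.38 ± 0.26, adjusted p = 0.29), and Mirg did not pass either (0.37 ± 0.31, adjusted p = 0.393). In WT, Meg3 and Rian averaged 7.43 and 4.01 CPM, so both groups stood far above WT for these RNAs, and only the MET group did so for Dlk1 (1.29 CPM in WT; MET group against WT 5.52 ± 0.44, NRF2 group against WT -1.96 ± 0.68, adjusted p = 0.0299). Of 14 imprinted genes 3, Dlk1, Igf2 (1.67 ± 0.38) and Peg3, were higher in the MET group and 2, Cdkn1c (-0.82 ± 0.24) and Impact (-0.75 ± 0.13), lower, while H19 did not pass (1.44 ± 0.67, adjusted p = 0.116). Both shares were near those of all genes (17.2% and 17.9%). Igf2 and Cdkn1c were not called with the unmapped term. Cdkn1c was not called without MET group replicate 1 or 2 or NRF2 group replicate 2 (adjusted p up to 0.0746).

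Cell adhesion genes differed by member. Cdh17, the liver-intestine cadherin, was at 84.1, 53.9 and 39.4 CPM in the MET group and 2.85, 1.88 and 2.17 CPM in the NRF2 group (4.67 ± 0.39, adjusted p = 1.65e-06). The tight junction genes Cldn14 (1.88 ± 0.25) and Tjp1 (0.65 ± 0.10) and the biliary keratin Krt19 (1.87 ± 0.39) were higher in the MET group, the latter at no more than 2.02 CPM on average. The hepatocyte keratins Krt8 (441, 405 and 392 CPM in the MET group and 1005, 1028 and 903 CPM in the NRF2 group; -1.25 ± 0.16, adjusted p = 2.44e-05) and Krt18 (-0.68 ± 0.17) and Cldn4 (-2.37 ± 0.84) were higher in the NRF2 group. In all, 7 of 17 keratin and junction genes were higher and 3 lower in the MET group (4 and 1 with the unmapped term). Krt19, Krt18 and Cldn4 were not called with the unmapped term. Cldn4 was not called without MET group replicate 1, 2 or 3 or NRF2 group replicate 1 or 2 (adjusted p up to 0.14). The keratin and junction genes lower in the MET group numbered 5 with total-count scaling and 5 with only the 6 libraries fitted.

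**Figure D4:**
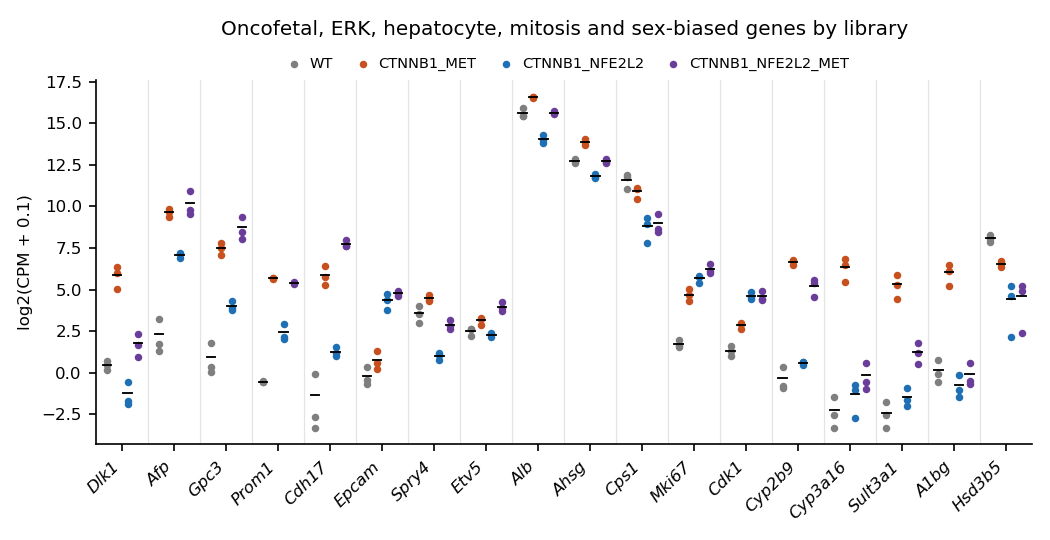
Level of genes with large differences in each library of WT, CTNNB1_MET (MET group), CTNNB1_NFE2L2 (NRF2 group) and CTNNB1_NFE2L2_MET (triple group), as log2(CPM + 0.1); points are libraries and bars the mean of the 3 libraries of a group. Dlk1, Cyp3a16, Sult3a1 and A1bg are highest in the MET group, Afp, Gpc3, Prom1 and Cdh17 are highest in the MET and triple groups, and Epcam, Mki67 and Cdk1 are higher in the NRF2 group than in the MET group.

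Transcripts of secreted liver proteins were more abundant in the MET group. Of 23 members, 16 were higher and 0 lower (median 0.94; 9 higher with the unmapped term). Alb, serum albumin (chromosome 5, 90460870 to 90476602, GRCm38.p6), was at 96920, 96155 and 99345 CPM in the MET group and 16452, 14265 and 19827 CPM in the NRF2 group (2.53 ± 0.21, adjusted p = 3.22e-07), with the WT mean between them at 50866 CPM. Apoa1, the main protein of high-density lipoprotein, was at 15403, 17345 and 18991 CPM in the MET group and 5390.3, 5698 and 6794 CPM in the NRF2 group (1.53 ± 0.17, adjusted p = 5.47e-06), and Ahsg, a plasma glycoprotein, at 17443, 15085 and 13224 CPM in the MET group and 3424, 3532 and 3979 CPM in the NRF2 group (2.06 ± 0.16, adjusted p = 1.55e-07). The summed level of the list was 246540 to 273480 CPM in the MET group, 92272 to 108830 CPM in the NRF2 group and 187280 to 217620 CPM in WT. Against WT, 4 members were higher and 0 lower in the MET group (background 11% and 6.22%), and 0 higher and 17 lower in the NRF2 group (background 24.5% and 24.2%). Serpina1d, a copy of the alpha-1 antitrypsin gene (3.41 ± 0.34), and Mup3, a major urinary protein (2.52 ± 0.48), belong to families of near-identical copies and are uncertain. Mup3 was not called with the unmapped term.

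Coagulation and complement genes, also made by hepatocytes, were higher in the MET group for 29 of 34 members and lower for 1, Pros1 (-0.70 ± 0.16), with a median of 0.97 (18 higher with the unmapped term). Plg, plasminogen, was at 3197, 3119.9 and 3167 CPM in the MET group and 1181, 1027 and 1384 CPM in the NRF2 group (1.40 ± 0.15, adjusted p = 3.47e-06). Serpind1, heparin cofactor II (1.72 ± 0.16), F2, prothrombin (0.97 ± 0.13), and C1s1, a starter protease of complement (1.38 ± 0.15), were higher, while C3, the central complement protein, did not differ beyond its spread (-0.04 ± 0.23, adjusted p = 0.926). Of 22 acute phase genes 11 were higher in the MET group and 0 lower (median 1.55), including the copper carrier Cp (1955, 1659 and 1702 CPM in the MET group and 627, 517 and 614 CPM in the NRF2 group; 1.596 ± 0.19, adjusted p = 9.76e-06) and the fibrinogen chain Fgg (1.54 ± 0.29). The strongly inducible Saa1 (216, 201 and 119 CPM in the MET group and 39.8, 30.99 and 46.7 CPM in the NRF2 group) did not overlap between the groups but did not pass (2.19 ± 1.53, adjusted p = 0.302). Fgg averaged 3081 CPM in the MET group, 1062 CPM in the NRF2 group and 5390 CPM in WT, where the summed acute phase level of replicate 2 stood apart at 70903 CPM against 18437 and 23399 CPM. Pros1 was not called with the unmapped term. The acute phase genes higher in the MET group numbered 17 with only the 6 libraries fitted.

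The transcription factors that keep hepatocytes differentiated were higher in the MET group for 8 of 22 members and lower for 0 (median 0.36; 2 with the unmapped term, 5 higher and 1 lower with total-count scaling). Foxa3 was at 112.8, 102 and 90.6 CPM in the MET group and 35.7, 34.2 and 38.7 CPM in the NRF2 group (1.49 ± 0.20, adjusted p = 4.28e-05) and Ppara, the receptor that drives fatty acid oxidation, at 316, 402 and 353 CPM in the MET group and 146, 146 and 159 CPM in the NRF2 group (1.25 ± 0.15, adjusted p = 1.15e-05). Cebpa (0.93 ± 0.19) and Hnf4a (0.54 ± 0.15) followed. Urea cycle genes were higher for 6 of 9 (1 with the unmapped term), among them Cps1, which fixes ammonia (1429, 2157 and 2204 CPM in the MET group and 502, 226 and 628 CPM in the NRF2 group; 2.10 ± 0.37, adjusted p = 6.74e-04), and Asl (1.30 ± 0.21). Amino acid breakdown genes were higher for 11 of 23 (1 with the unmapped term), with Agxt (2.24 ± 0.37) and Gpt (0.79 ± 0.15) as examples. In the urea cycle 0 genes and in amino acid breakdown 0 were lower in the MET group, and 1 and 2 with total-count scaling. Cebpa, Cps1, Asl, Agxt and Gpt were not called with the unmapped term. Hnf4a was not called with the unmapped term or with total-count scaling. Hnf4a was not called without NRF2 group replicate 1 (adjusted p = 0.0525). The breakdown genes higher in the MET group numbered 7 with total-count scaling.

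Fatty acid synthesis genes were mostly higher in the MET group, while other lipid and sugar genes were divided. Of 19 fatty acid synthesis genes 14 were higher and 0 lower (median 0.94; 9 with the unmapped term). Srebf1, which drives the pathway, was at 167, 192 and 193 CPM in the MET group and 56.4, 60.04 and 55.5 CPM in the NRF2 group (1.68 ± 0.22, adjusted p = 4.64e-05), and Acly, which makes its acetyl-CoA (0.97 ± 0.14), Acaca (0.81 ± 0.13), Elovl6 (1.43 ± 0.18) and Dgat2, which finishes triglycerides (1.28 ± 0.17), were higher. In cholesterol synthesis 4 of 22 genes were higher, a share near that of all genes (17.2%). Fatty acid oxidation split, with 8 of 24 genes higher in the MET group, such as Fabp1, which carries fatty acids in the cell (1.80 ± 0.23), and 5 lower. The latter were the fatty acid carrier Cd36 (16.9, 16.2 and 13.5 CPM in the MET group and 96.2, 171 and 95.7 CPM in the NRF2 group; -2.97 ± 0.24, adjusted p = 6.37e-07), Pdk4 (-2.32 ± 0.42), Ehhadh (-1.49 ± 0.18), Acadm (-0.86 ± 0.14) and Pex11a (-0.55 ± 0.20). Pdk4 and Pex11a were not called with the unmapped term. Pex11a was not called without MET group replicate 1 or 3 or NRF2 group replicate 2 or 3 (adjusted p up to 0.182). The cholesterol genes higher in the MET group numbered 2 without MET group replicate 3 or NRF2 group replicate 2 or 3, 2 with total-count scaling and 9 with only the 6 libraries fitted. The oxidation genes higher in the MET group numbered 5 without MET group replicate 3, 5 with total-count scaling, 5 with the 3 added libraries left out and 4 with the unmapped term. The oxidation genes lower in the MET group numbered 3 with the unmapped term.

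Of 26 glycolysis and gluconeogenesis genes 10 were higher and 6 lower in the MET group (6 and 1 with the unmapped term). Among those higher were the glucose transporter Slc2a2 (1.22 ± 0.16), the pyruvate kinase Pklr (1.02 ± 0.15) and the gluconeogenic Fbp1 (2.04 ± 0.20). Among those lower were the pyruvate kinase Pkm (80.1, 84.0 and 70.3 CPM in the MET group and 174, 183 and 137 CPM in the NRF2 group; -1.08 ± 0.26, adjusted p = 0.00539) and Pgam1 (-0.87 ± 0.12), while the hexokinase Hk2 did not pass (-0.48 ± 0.37, adjusted p = 0.344). Amino acid transporters were lower in the MET group for 12 of 22 and higher for 6 (6 and 2 with the unmapped term), with Slc7a5, which imports leucine, lower (-1.13 ± 0.20) and Slc43a1 higher (2.06 ± 0.25). Bile acid genes were 8 higher and 6 lower of 22 (0 and 4 with the unmapped term, 3 and 7 with total-count scaling). The uptake carrier Slc10a1 was higher (1.55 ± 0.22), the reductase Akr1d1 lower (-2.21 ± 0.21), and Cyp7a1, the rate-limiting enzyme of bile acid synthesis, did not pass (-0.96 ± 0.56, adjusted p = 0.215). Pkm, Slc7a5 and Slc10a1 were not called with the unmapped term. The bile acid genes higher in the MET group numbered 5 without MET group replicate 2, 4 without MET group replicate 3 or NRF2 group replicate 1 or 2, 5 with a term for the added libraries and 4 with the 3 added libraries left out.

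Genes with sex-biased expression in liver differed between the groups although all animals were male. Xist ranged from 0.222 to 0.574 CPM and the Y-linked Ddx3y from 36.7 to 60.1 CPM over the 6 libraries, which matches the label of male sex. Of 16 tested genes that female liver expresses more, 12 were higher and 1 lower in the MET group (median 5.24). Cyp2b9, a cytochrome P450 of female liver (chromosome 7, 26173350 to 26210661, GRCm38.p6), was at 104, 87.4 and 108.2 CPM in the MET group and 1.45, 1.25 and 1.45 CPM in the NRF2 group (6.17 ± 0.28, adjusted p = 2.43e-09). Cyp3a16 was at 115, 87.4 and 42.9 CPM in the MET group and 0.386, 0.0523 and 0.500 CPM in the NRF2 group (8.003 ± 0.56, adjusted p = 3.39e-07), and the sulfotransferase Sult3a1 at 59.7, 38.1 and 21.7 CPM in the MET group and 0.145, 0.418 and 0.222 CPM in the NRF2 group (7.22 ± 0.53, adjusted p = 2.58e-07). A1bg, a plasma protein of the immunoglobulin family, was at 87.9, 70.7 and 37.3 CPM in the MET group and 0.821, 0.261 and 0.389 CPM in the NRF2 group (7.01 ± 0.49, adjusted p = 2.47e-07), and the oxidase Hao2 (7.29 ± 0.48) and the peroxisomal transporter Abcd2 (4.80 ± 0.24) behaved alike. Each of these was at or below 2.17 CPM on average in the NRF2 group, and all but Abcd2 were below 0.997 CPM or at it in WT.

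Against WT, 14 of 16 female-biased genes were higher in the MET group and 4 in the NRF2 group (background 11% and 24.5%), and 0 and 2 were lower (background 6.22% and 24.2%). The exception between the groups was Cyp2a4, a near-identical neighbour of Cyp2a5, at 333, 284 and 253 CPM in the MET group and 4706, 6502 and 6184 CPM in the NRF2 group (-4.32 ± 0.52, adjusted p = 3.30e-05), so that the summed level of the list went the other way, 683 to 938 CPM in the MET group against 4736 to 6558 CPM in the NRF2 group. Male-biased genes were higher in the MET group for 10 of 16 and lower for 2 (median 0.98; 0 higher with the unmapped term), so the called genes of both lists were mostly higher in the MET group. The steroid dehydrogenase Hsd3b5 (94.8, 83.1 and 104 CPM in the MET group and 24.3, 4.34 and 36.4 CPM in the NRF2 group; 2.12 ± 0.68, adjusted p = 0.0324) and the organic anion carrier Slco1a1 (1.59 ± 0.34) had WT means of 270.5 and 1168 CPM, and were called lower than WT in the NRF2 group (adjusted p = 0.00154 and 9.56e-05) while the MET group did not pass (adjusted p = 0.139 and 0.132). The members higher in the NRF2 group were Cyp4a12a (-1.27 ± 0.25) and Cyp4a12b (-4.46 ± 0.34). Hsd3b5 and Slco1a1 were not called with the unmapped term. Hsd3b5 was not called without MET group replicate 1, 2 or 3 or NRF2 group replicate 1 or 2 (adjusted p up to 0.0737). The male-biased genes higher in the MET group numbered 6 without MET group replicate 2 or NRF2 group replicate 2.

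Drug-metabolising families were divided, and since their lists share members with the sex-biased lists (Cyp3a16, Cyp2a4 and Sult3a1 among them) their counts hold some of the same genes. Of 36 cytochrome P450 genes 8 were higher and 6 lower in the MET group, and of 38 glucuronosyltransferase, sulfotransferase and carboxylesterase genes 14 and 10 (background 17.2% and 17.9%; 4 and 5, and 4 and 11, with the unmapped term). The oestrogen sulfotransferase Sult1e1 was higher (7.15 ± 0.54), and the glucuronosyltransferases Ugt2b35 (-2.49 ± 0.16) and Ugt1a6a (-1.51 ± 0.13) were lower. Of 16 growth hormone and IGF1 genes 4 were higher in the MET group, namely Igf1 (388, 470 and 552 CPM in the MET group and 203, 138 and 264 CPM in the NRF2 group; 1.22 ± 0.24, adjusted p = 9.94e-04), its carrier Igfals (1.13 ± 0.26), Igfbp2 (1.37 ± 0.34) and the prolactin receptor Prlr (1.13 ± 0.22), and 0 were lower. The growth hormone receptor Ghr did not pass (0.62 ± 0.26, adjusted p = 0.0792). Igf1, Igfals and Igfbp2 were not called with the unmapped term. The cytochrome P450 genes higher in the MET group numbered 14 with only the 6 libraries fitted. The growth hormone axis genes higher in the MET group numbered 1 with the unmapped term.

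Genes that present antigen on MHC class I were higher in the MET group for 11 of 16 tested members and lower for 0 (median 0.76). Nlrc5, the transcription activator of class I genes, was at 25.7, 21.3 and 19.2 CPM in the MET group and 5.51, 7.11 and 6.78 CPM in the NRF2 group (1.77 ± 0.27, adjusted p = 1.97e-04). Psmb8, a subunit of the immunoproteasome, was at 93.8, 68.6 and 86.6 CPM in the MET group and 30.6, 28.5 and 30.3 CPM in the NRF2 group (1.48 ± 0.20, adjusted p = 5.72e-05), and Tap1, which carries peptides to the class I complex, at 38.6, 28.0 and 38.7 CPM in the MET group and 15.7, 14.3 and 13.6 CPM in the NRF2 group (1.27 ± 0.18, adjusted p = 5.85e-05). The heavy chain H2-K1 (0.86 ± 0.13) and the light chain B2m (0.73 ± 0.12) followed, and reads of the H2 genes may be split between near-identical copies. Against WT, 10 members were higher in the MET group and 0 lower (background 11% and 6.22%), and 5 were higher and 3 lower in the NRF2 group, where 24.5% and 24.2% of all genes were. B2m was not called with the unmapped term.

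Interferon response genes were not one block. Of 28 members, 13 were lower and 5 higher in the MET group (median -0.39; 1 and 4 with the unmapped term). Those lower included the antiviral GTPase Mx1, at 1.35, 2.27 and 0.992 CPM in the MET group and 32.5, 35.3 and 31.01 CPM in the NRF2 group (-4.46 ± 0.34, adjusted p = 3.40e-07), Oasl1 (-2.54 ± 0.31), Oas2 (-2.60 ± 0.37) and the regulator Irf7 (-1.40 ± 0.28). Those higher included Stat2 (0.55 ± 0.15), Irf9 (0.55 ± 0.15), Gbp2 (0.98 ± 0.22) and the T cell attractant Cxcl9, at 62.0, 37.8 and 46.6 CPM in the MET group and 8.65, 8.10 and 5.28 CPM in the NRF2 group (2.73 ± 0.40, adjusted p = 2.44e-04). Among 16 chemokine genes 5 were higher, Cxcl9, Ccl9 (1.200 ± 0.12), Cxcl1 (2.20 ± 0.69), Cxcl12 (0.71 ± 0.20) and Cxcl13 (2.60 ± 0.66), and 1, the scavenger receptor Ackr3 (-1.48 ± 0.35), was lower. Of 10 checkpoint genes 4 were lower in the MET group (1 with the unmapped term), Vtcn1, which encodes B7-H4 (0.123, 0.354 and 0.209 CPM in the MET group and 6.14, 7.89 and 7.73 CPM in the NRF2 group; -4.98 ± 0.46, adjusted p = 8.62e-07), Cd276 (-0.91 ± 0.21), Pvr (-0.64 ± 0.16) and Cd86 (-0.71 ± 0.24), and Cd274, which encodes PD-L1, did not differ beyond its spread (0.01 ± 0.33, adjusted p = 0.989). Oasl1, Oas2, Irf7, Cxcl12, Cxcl13, Cd276, Pvr and Cd86 were not called with the unmapped term. Stat2 was not called with the unmapped term or with total-count scaling. Irf9 was not called with total-count scaling. Irf9 was not called without NRF2 group replicate 3 (adjusted p = 0.0507), Cxcl1 without MET group replicate 1 or NRF2 group replicate 2 or 3 (adjusted p up to 0.0881) and Cd86 without MET group replicate 2 or 3 or NRF2 group replicate 1 (adjusted p up to 0.169). The interferon genes higher in the MET group numbered 3 with total-count scaling. The chemokine genes higher in the MET group numbered 3 with the unmapped term.

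Markers of other liver cell types also differed between the groups, macrophage markers mostly towards the NRF2 group and T cell markers towards the MET group, and their part in the differences above was not tested. Macrophage and Kupffer cell markers were lower in the MET group for 13 of 23 tested members and higher for 0 (median -0.63), with a summed level of 717 to 812 CPM in the MET group, 1107 to 1390.5 CPM in the NRF2 group and 567 to 659 CPM in WT. The Kupffer cell lectin Clec4f was at 113.1, 127 and 90.9 CPM in the MET group and 228, 139 and 193 CPM in the NRF2 group (-0.76 ± 0.21, adjusted p = 0.0118), and Csf1r (-0.74 ± 0.16), C1qb (-0.79 ± 0.15) and Cd68 (-1.33 ± 0.21) were lower too. The count fell to 1 with the unmapped term. Cd9, a tetraspanin found on many cells and included as a marker of scar macrophages, was lower as well (-2.26 ± 0.15). Clec4f, Csf1r, C1qb and Cd68 were not called with the unmapped term. Clec4f was not called without MET group replicate 3 or NRF2 group replicate 1 (adjusted p up to 0.0561). The macrophage markers lower in the MET group numbered 8 without MET group replicate 3 and 7 without NRF2 group replicate 1.

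T and NK cell markers were low in all 6 libraries, with a summed level of 25.0 to 28.7 CPM in the MET group and 11.9 to 19.7 CPM in the NRF2 group, and 6 of 15 tested markers were higher in the MET group (1 with the unmapped term). Zap70, a T cell kinase, was at 7.78, 7.94 and 7.05 CPM in the MET group and 2.27, 1.25 and 2.11 CPM in the NRF2 group (2.01 ± 0.27, adjusted p = 4.23e-05), with WT at 8.94 CPM. The T cell receptor chain Cd3d was at 1.04, 0.638 and 0.835 CPM in the MET group and 0.386, 0.209 and 0.222 CPM in the NRF2 group (1.59 ± 0.43, adjusted p = 0.00969), and Cd8a was counted too rarely for a test. Among 8 markers of B and plasma cells 3 were higher, Jchain (13.7, 5.03 and 8.93 CPM in the MET group and 0.338, 0.314 and 0.333 CPM in the NRF2 group; 4.78 ± 0.61, adjusted p = 4.42e-05), Mzb1 (2.19 ± 0.49) and Blnk (1.92 ± 0.43). Cd3d, Mzb1 and Blnk were not called with the unmapped term. Cd3d was not called without NRF2 group replicate 2 (adjusted p = 0.0505). The T and NK cell markers higher in the MET group numbered 2 without NRF2 group replicate 2 and 3 with counts of 1 strand. The B cell markers higher in the MET group numbered 1 with the unmapped term.

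Endothelial markers were nearly level, with 2 of 20 higher and 1 lower in the MET group (median 0.05; 1 and 5 with total-count scaling, 0 and 0 with the unmapped term), and a summed level of 406 to 514 CPM against 392 to 454 CPM. Stellate cell and fibroblast markers were higher for 4 of 18 and lower for 1, Ecm1 (-1.62 ± 0.24). Reln was among those higher, at 329, 237 and 246 CPM in the MET group and 26.3, 37.3 and 40.5 CPM in the NRF2 group (2.96 ± 0.23, adjusted p = 2.05e-07). Of 15 collagen genes 3 were higher, Col27a1 (1.41 ± 0.30), Col18a1 (0.56 ± 0.14) and Col15a1 (1.55 ± 0.43), and the main scar collagen Col1a1 overlapped between the groups (0.14 ± 0.55, adjusted p = 0.878). For stellate and fibroblast markers and for collagens alike, the share higher was near the 17.2% of all genes. Dendritic cell markers gave 1 of 11 lower, Ccr7 (-1.60 ± 0.50), and 0 higher, and neutrophil markers summed to 1.90 to 2.41 CPM and 3.17 to 5.99 CPM. The red cell gene Slc4a1 (0.674, 0.921 and 1.04 CPM in the MET group and 19.6, 21.7 and 9.73 CPM in the NRF2 group; -4.26 ± 0.48, adjusted p = 1.22e-05) was higher in the NRF2 group, while Alas2 did not pass (0.39 ± 0.15, adjusted p = 0.0598). The haemoglobin genes of the list had 0 counts in each of the 6 libraries. So did the glycolysis gene Eno1 and the MHC class I genes H2-Q7 and H2-T22, so 0 counts do not show that a transcript was absent. Pancreatic acinar genes such as Amy2a5 and Cpb1 also had 0 counts, but the list summed to 105.1 to 120.5 CPM in the MET group and 70.1 to 96.4 CPM in the NRF2 group, nearly all of it from the elastase gene Cela1, which was higher in the MET group (119, 105.9 and 104 CPM in the MET group and 68.5, 73.8 and 94.9 CPM in the NRF2 group; 0.47 ± 0.15, adjusted p = 0.0263). Of its other members Cela2a (0.49 ± 0.37, adjusted p = 0.327) and Cela3b (-0.65 ± 0.51, adjusted p = 0.356) were tested and did not pass. Col27a1, Col18a1 and Slc4a1 were not called with the unmapped term. Cela1 was not called with the unmapped term or with total-count scaling. Col15a1 was not called without NRF2 group replicate 2 or 3 (adjusted p up to 0.0569), Ccr7 without MET group replicate 3 or NRF2 group replicate 1 (adjusted p up to 0.0999) and Cela1 without MET group replicate 1 or 2 or NRF2 group replicate 1 or 2 (adjusted p up to 0.109). The stellate and fibroblast markers higher in the MET group numbered 2 with total-count scaling and 1 with the unmapped term. The collagen genes higher in the MET group numbered 6 with only the 6 libraries fitted, 5 with a term for the added libraries, 5 with the 3 added libraries left out and 1 with the unmapped term.

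**Figure D5:**
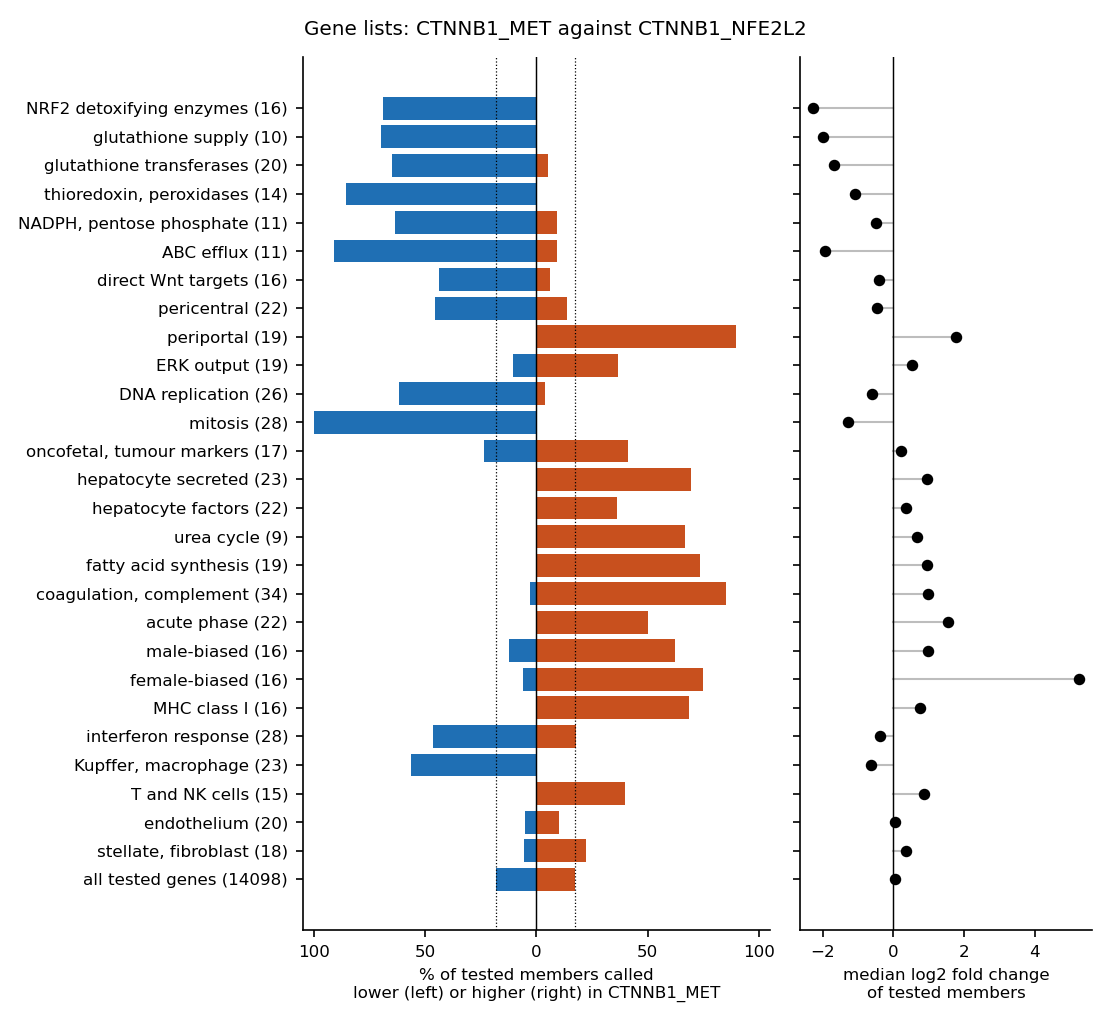
For the gene lists and for all tested genes, the left panel gives the percentage of tested members called lower (left) or higher (right) in CTNNB1_MET (MET group) against CTNNB1_NFE2L2 (NRF2 group), with dotted lines at the shares of all tested genes, and the right panel the median log2 fold change. Numbers in brackets are tested members, and the lists of NRF2 targets, ABC efflux and mitosis lie on the NRF2 side while periportal, coagulation and female-biased genes lie on the MET side.

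The triple group, with S45Y-CTNNB1, G31A-NFE2L2 and hMET, gave the level of the same genes where both partners were present. It was tested against each group in the same fit and shares libraries with the comparison above, so the values stand side by side. NRF2 targets were higher in the triple group than in the MET group for 48 of 71 members and lower for 4 (background 18.4% and 15.4%), and against the NRF2 group 6 were higher and 19 lower (background 13.1% and 11.8%). Nqo1 stood at 295, 261 and 249 CPM in the triple group and Slc7a11 at 668, 454 and 480 CPM, both within the range of the NRF2 group or close to it. Slc22a12 was lower than in the NRF2 group (421, 506 and 479 CPM; -1.59 ± 0.37, adjusted p = 0.00773), and so was Wnt4 (3.69, 2.69 and 1.41 CPM; -5.13 ± 0.42, adjusted p = 8.92e-06).

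Genes of the MET side behaved differently from each other in the triple group. Afp (1974, 881 and 763 CPM), Gpc3 (665, 356 and 262 CPM) and Cdh17 (255, 201 and 198 CPM) stood above the NRF2 group (triple minus NRF2 group 3.15 ± 0.49, adjusted p = 7.76e-04, 4.73 ± 0.45, adjusted p = 3.20e-05 and 6.56 ± 0.41, adjusted p = 1.77e-06). Dlk1 (1.84, 4.95 and 3.11 CPM) was lower than in the MET group (triple minus MET group -4.17 ± 0.38, adjusted p = 5.15e-06), as were Cyp3a16 (0.410, 0.577 and 1.41 CPM; -6.66 ± 0.50, adjusted p = 1.26e-06), A1bg (0.614, 0.529 and 1.41 CPM; -6.24 ± 0.46, adjusted p = 8.05e-07) and Spry4 (8.91, 6.11 and 7.01 CPM; -1.59 ± 0.23, adjusted p = 1.16e-04). For Dlk1 and Spry4 all triple group libraries lay above all NRF2 group libraries, so both genes stood between the groups. Cyp2b9 stood between the groups as well (23.7, 41.4 and 47.7 CPM; triple minus MET group -1.41 ± 0.21, adjusted p = 1.78e-04, triple minus NRF2 group 4.76 ± 0.28, adjusted p = 2.21e-07). Of 19 ERK output genes, 10 were higher and 0 lower in the triple group than in the NRF2 group (background 13.1% and 11.8%). Against the MET group 4 were higher and 1 lower (background 18.4% and 15.4%). Periportal genes were lower in the triple group than in the MET group for 17 of 19 (background 15.4%), and mitosis genes were higher for 28 of 28 (background 18.4%).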

How the data were processed

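Read counts per gene (polyA RNA, mouse liver) were used as the authors deposited them, 1 file per sample, with mm10, Trimmomatic and STAR named by the submitters' processing notes and versions, options and annotation release not given in the sources used here. The counts of both strands together were taken, since the single-strand counts were near equal, so overlapping and antisense genes, and families of near-identical copies, cannot be told apart. Rows that name no gene were dropped: in the 6 libraries 9.71 to 19.1% of reads were unmapped, 5.55 to 6.36% mapped to several places, 7.93 to 9.74% hit no gene and 1.81 to 1.96% were ambiguous. Of 24411 genes 14098 passed edgeR's filterByExpr by group. One edgeR 4.0.16 quasi-likelihood fit (robust, TMM) over all 15 libraries with 1 coefficient per group, under R 4.3.3, gave each contrast, with p-values adjusted by Benjamini-Hochberg over all tested genes. CPM values use TMM-scaled totals, and standard errors are the fold change over the square root of F. The fit was tested on simulated counts with the same dispersion, 0.041, for every gene and no effect of the unmapped share, unlike the real libraries. It called 63 of 100 genes changed 2-fold, 100 of 100 changed 4-fold and 8 of 13769 unchanged genes. Replicates of a group differed by more than sampling noise (chi-square per gene 14.1 to 30.6).

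The gene lists (63 lists, 1111 genes, 1051 of them tested) and the genes named were chosen with earlier results of these data known. The rule named the counterparts of the introduced genes, the 12 largest differences per direction among called genes of mean log2 CPM of at least 3 with groups that do not overlap, the 5 smallest p-values per direction, and in each list the 4 smallest p-values and set well-known members. A further 29 genes were named after their values were seen, to account for small counts: Maff, Cul3, Gstz1, Nnt, Trf, Tfr2, Abcc6, Psat1, Wnt5a, Slc13a3, Avpr1a, Lrig1, Spint2, Plau, Nrp1, Tk1, Golm1, Cd44, Cd24a, Krt18, Cldn4, Acadm, Pex11a, Cyp2a4, Pros1, Irf9, Stat2, Gbp2 and Cxcl12. Promoters are from RefSeq GRCm38.p6, and gene coordinates from its annotation. Alternatives were RLE and total-count scaling, no low-count filter, counts of 1 strand, DESeq2 1.42.0, a fit of the 6 libraries alone, a term for the added libraries, leaving these out, a term for the unmapped share, and leaving out each of the 6 libraries.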

Additional observations from a re-analysis of the deposited data

How the results depend on the processing

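No paired analysis was possible because the replicate numbers are only the order of the samples and no label pairs animals across groups. A term for the share of unmapped reads, whose ranges do not overlap between the groups, left 1632 calls (734 higher, 898 lower in the MET group) in place of 4954, and 1536 of these were among the 4954. With that term 0 direct Wnt targets were higher and 2 lower, 4 ERK output genes were higher, 3 mitosis genes were lower, and Adgre1, a macrophage gene, changed sign to 0.0147 (from -0.63). Total-count scaling gave 1300 genes higher and 4043 lower and 0 Wnt targets higher. Leaving out 1 library gave 3721 to 4421 calls, 1739 to 2208 higher and 1982 to 2249 lower, 47 to 49 NRF2 targets lower, 0 to 2 Wnt targets higher and 4 to 7 lower, 6 to 8 ERK output genes higher and 25 to 28 mitosis genes lower. The cause of these changes was not tested, and fewer libraries lower the number of calls by construction. RLE scaling, DESeq2, counts of 1 strand, no filter and the 6 libraries alone left between 4338 and 5160 calls, each within 1.5 times of the main count. NRF2 targets lower in the MET group stayed within 1.5 times of 50 under all 15 alternatives (47 to 56). Of 437 named genes (340 called), 143 called genes kept their direction but did not pass with the unmapped term, and 1 more, Adgre1, changed sign. On leaving out 1 library 26 to 40 called genes did not pass. With 3 libraries a group small differences may be missed, and a p above the threshold does not show that levels were equal.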

Other observations

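Several of the largest differences on the MET side belonged to no list. Dio1, the deiodinase that activates thyroid hormone, was at 141, 159 and 95.5 CPM in the MET group and 5.56, 1.88 and 6.84 CPM in the NRF2 group (4.79 ± 0.62, adjusted p = 1.17e-04), and WT averaged 159.9 CPM. Slc22a7, an organic anion carrier, was at 66.0, 78.8 and 90.6 CPM in the MET group and 8.41, 2.35 and 9.78 CPM in the NRF2 group (3.52 ± 0.50, adjusted p = 1.96e-04), against 162 CPM in WT. For both genes the NRF2 group was the one far from WT. Rgs16, a regulator of G protein signals, was at 311, 192 and 309 CPM in the MET group and 20.1, 14.1 and 24.0 CPM in the NRF2 group (3.80 ± 0.53, adjusted p = 1.94e-04). Adgrv1, an adhesion receptor (4.58 ± 0.47), Adcy1, an adenylate cyclase best known from brain (3.65 ± 0.57), and Miox, the inositol oxygenase of kidney (5.93 ± 0.36), were higher in the MET group. Adcy1 was not called with the unmapped term.

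Genes of serine synthesis and the amino acid response differed singly. Phgdh, the first enzyme of serine synthesis, was at 91.5, 43.7 and 43.8 CPM in the MET group and 5.27, 1.57 and 1.67 CPM in the NRF2 group (4.37 ± 0.50, adjusted p = 3.67e-05), and Psat1, the next enzyme, also stood higher in the MET group (0.94 ± 0.30), as did Atf5 (1.497 ± 0.27). Atf4 itself did not pass (0.26 ± 0.17, adjusted p = 0.246), and the stress factor Atf3 was lower in the MET group (-2.69 ± 0.54). Of 9 tested carbonic anhydrases, which interconvert carbon dioxide and bicarbonate, 1 was higher and 2 were lower in the MET group. These shares were near those of all genes (17.2% and 17.9%). Car5a (0.57, adjusted p = 0.0657) and Car3 (0.76, adjusted p = 0.341) did not pass. Car14 was at 18.5, 28.3 and 22.97 CPM in the MET group and 3.77, 4.70 and 4.78 CPM in the NRF2 group (2.40 ± 0.25, adjusted p = 3.91e-06) and Car2 at 22.6, 15.5 and 14.7 CPM in the MET group and 103.4, 119 and 91.7 CPM in the NRF2 group (-2.57 ± 0.29, adjusted p = 2.09e-05). Clock genes were higher in the MET group for 6 of 18, such as Ciart (2.39 ± 0.43), and Nr1d1 did not pass (0.35 ± 0.47, adjusted p = 0.61). The times of tissue collection are not in the labels. Atf3 and Ciart were not called with the unmapped term. Psat1 was not called with the unmapped term or with total-count scaling. Psat1 was not called without MET group replicate 1 or NRF2 group replicate 2 or 3 (adjusted p up to 0.139). The clock genes higher in the MET group numbered 3 with total-count scaling, 10 with only the 6 libraries fitted and 0 with the unmapped term.

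Respiratory chain genes were lower in the MET group for 11 of 29 and higher for 0 (median -0.30; 25 lower with total-count scaling), with Sdhc at -0.64 ± 0.12 and Cycs at -0.51 ± 0.12, while ribosomal protein genes were higher for 3 of 30 and lower for 0 (1 and 2 with total-count scaling). Immediate early and heat shock genes were lower in the MET group for 7 of 15 and higher for 2. Such genes can respond to tissue handling, and the part of handling was not tested. NRF2 group replicate 1 carried the highest levels. The heat shock gene Hspa1b was at 25.3, 28.7 and 15.3 CPM in the MET group and 356, 51.1 and 51.3 CPM in the NRF2 group (-2.73 ± 0.77, adjusted p = 0.0175). The list summed to 2988 CPM in NRF2 group replicate 1 against 1402 and 1211 CPM in the other libraries of the group. Hspa1b was not called with the unmapped term. Hspa1b was not called without MET group replicate 1 or 3 or NRF2 group replicate 1 (adjusted p up to 0.0986). The respiratory chain genes lower in the MET group numbered 5 without MET group replicate 1, 6 without NRF2 group replicate 2 or 3, 17 with DESeq2 and 18 with the unmapped term. The ribosomal protein genes higher in the MET group numbered 1 without MET group replicate 2, 6 without MET group replicate 3, 6 with the 3 added libraries left out and 0 with the unmapped term. The immediate early and heat shock genes lower in the MET group numbered 3 without MET group replicate 1 or NRF2 group replicate 1, 4 without MET group replicate 3, 3 with only the 6 libraries fitted, 4 with the 3 added libraries left out and 0 with the unmapped term.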
